A study of Mus musculus with 2 samples.

Results

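The 10 genes described here encode core members of the Bcl2 family, the proteins that decide whether the mitochondrial outer membrane is opened during apoptosis. They are the genes whose symbols are Bcl2, Bcl2l1, Mcl1, Bax, Bak1, Bcl2l11, Bid, Bad, Bbc3 and Pmaip1, and all 10 were found among the 24081 gene symbols of the deposited table. The RNA came from Treg cells, regulatory CD4+ T lymphocytes defined by the factor Foxp3, which were sorted by CD4 and YFP out of the spleen and lymph nodes of C57BL/6 mice aged 5 weeks. All mice were Foxp3cre/wt, with a Cre recombinase driven by Foxp3. The library called WT is a control from mice carrying 1 floxed and 1 wild-type allele of a gene of the SUMO pathway, which attaches small SUMO proteins to other proteins, and the KO library from mice with both alleles floxed. Foxp3 lies on the X chromosome, so mice with 1 Cre allele also keep Treg cells without Cre, which the YFP sort leaves out. Cells of 5 to 10 mice were pooled for each library and there was 1 library per group. A difference between the libraries therefore has no replicate check, and no p-value can be given. Both libraries carry a genotype label that reads wild type, so the direction of every ratio rests on the sample titles.

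Family members fall into 3 classes by role. Pro-survival proteins (Bcl2, Bcl-xL from Bcl2l1, Mcl1) hold back the effectors Bax and Bak, which form pores in the outer membrane and release cytochrome c. BH3-only proteins (Bim from Bcl2l11, Bid, Bad, Puma from Bbc3, Noxa from Pmaip1) relay stress by binding the pro-survival proteins or activating the effectors. In Treg cells Mcl1 and Bim are known as opposing regulators of survival, and IL-2 signalling is known to favour the pro-survival side.

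The gene encoding the effector Bak (Bak1) and the BH3-only gene Bbc3 had more RNA in the KO library, 1.70-fold and 1.92-fold, and the BH3-only gene Pmaip1 had less, 1.68-fold. The genes most tied to Treg survival differed little: Mcl1 was 1.16-fold higher, and Bcl2, Bcl2l1 and Bcl2l11 were between 1.02-fold and 1.08-fold higher. Transcripts of Bak1 and Bbc3 are rich in GC and those of Pmaip1 poor beside the median expressed gene (57.3%, 67.1% and 41.6% against 49.9%), and none of these 3 was past 1.5-fold once a trend of the ratio with GC content and transcript length was removed. At least 1.5-fold higher were 2 of the 10 genes, where 7.43% of all 10899 expressed genes were, and 1 was at least 1.5-fold lower, where 5.51% of expressed genes were. In a set of 10 each gene is 10% of the set, so these counts lie within 1 or 2 genes of the background. The counting interval lay wholly above 1 for 5 of the 10 genes (29.1% of expressed genes) and wholly below 1 for 1 (25.6%).

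Reads assigned to genes numbered 11662867 for WT and 23789264 for KO. A gene was called expressed with a mean of at least 20 reads over both libraries, and all 10 family genes passed. Counts were brought to a common scale with TMM factors, which assume that most genes do not differ. Folds are ratios of these scaled counts. The calls at 1.5-fold and the log2 ratios add a pseudocount of 1, which shrinks ratios of genes with few reads. Bracketed ranges are exact 95% intervals: binomial for folds and shares, Poisson for levels, and conditional odds ratio for read ratios between genes. They cover counting error only, hold no spread between mice, and treat reads as independent. The median log2 ratio of the 10 genes was 0.16, against 0.01 over all expressed genes, whose interquartile range ran from -0.20 to 0.25. In bulk RNA of pooled cells, fewer cells with a transcript and less of it per cell cannot be told apart.

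**Figure D1:**
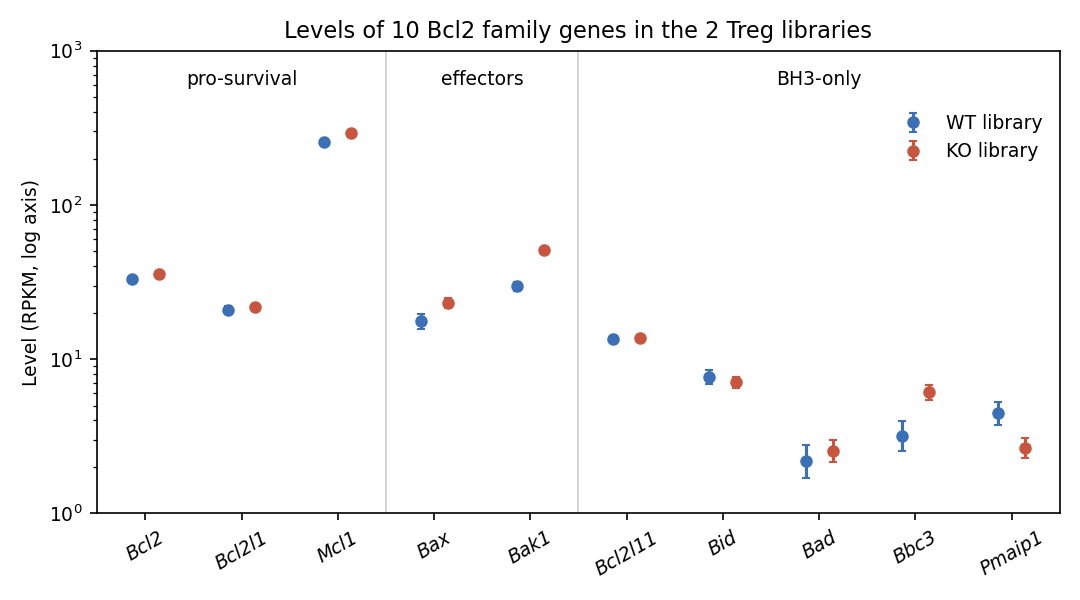
Level of each family gene in the WT (blue) and KO (red) library, in RPKM on a log axis; bars are exact 95% Poisson intervals for counting error of 1 library each. Mcl1 stands far above all other members in both libraries (254 and 294), Bak1 and Bbc3 are higher in KO, and Pmaip1 is lower.

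Levels were compared between genes in RPKM, reads per kilobase of annotated exon and per 1000000 scaled gene reads; CPM below is the same without the division by length. On this per-length scale Mcl1 dominated the family. Its level was 254 RPKM (249 to 259) in WT and 294 (291 to 298) in KO, and it made up 65.8% and 64.4% of the summed level of the 10 genes. In the WT library it was followed by Bcl2 (32.9), Bak1 (29.7), Bcl2l1 (20.9), Bax (17.6), Bcl2l11 (13.5), Bid (7.67), Pmaip1 (4.46), Bbc3 (3.18) and Bad (2.19). Neighbours in this order were separated by more than their counting intervals except Pmaip1 and Bbc3, and Bbc3 and Bad. In the KO library the order of levels was Mcl1, Bak1 (50.7), Bcl2 (35.4), Bax (23.1), Bcl2l1 (21.7), Bcl2l11 (13.8), Bid (7.09), Bbc3 (6.10), Pmaip1 (2.66) and Bad (2.55). There the intervals of Bax and Bcl2l1, of Bid and Bbc3, and of Pmaip1 and Bad overlapped. Bak1 thus stood above Bcl2 in KO and below it in WT, and Bbc3 and Pmaip1 had exchanged places. The order of close neighbours depends on the length used: with the longest annotated transcript in place of all exons, the WT levels of Bcl2l1 and Bak1 were 37.4 and 29.97, so Bcl2l1 came first.

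The pro-survival genes were all slightly above 1 in ratio. Mcl1, whose short-lived protein binds Bim and Bak (chromosome 3, 95658788 to 95663176, plus strand, mm10), had 10406 reads in WT and 23305 in KO, or 869 and 1006 CPM. That is 1.16-fold higher in KO (1.13 to 1.19), a small difference whose interval is narrow because the gene is so deeply covered. Bcl2, the founding member and a long gene on chromosome 1 (106538178 to 106714274, minus strand), had 3605 and 7516 reads, or 301 and 324 CPM (1.08-fold, 1.04 to 1.12). Bcl2l1, which encodes Bcl-xL (chromosome 2, 152780668 to 152831728, minus strand), had 1150 and 2308 reads, or 96.0 and 99.7 CPM. Its ratio of 1.04 (0.967 to 1.12) could not be told from no difference at this depth. Summed over the 3 genes the ratio was 1.13 (1.11 to 1.15). With total-count scaling the log2 ratios of Mcl1 and Bcl2 were 0.13 and 0.03 and that of Bcl2l1 turned to -0.02, so the direction for Bcl2l1 is not fixed by the data.

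Both pore-forming effectors were higher in the KO library. Bak1 (chromosome 17, 27019810 to 27029009, minus strand) had 857 reads in WT and 2824 in KO, or 71.5 and 121.9 CPM. The ratio was 1.70 (1.58 to 1.84), its log2 value of 0.77 lay at percentile 96.1 of all expressed genes, and its share of the family's reads went from 4.69% (4.39 to 5.01) to 6.96% (6.72 to 7.21). With the GC and length trend removed Bak1 was at 0.56 on the log2 scale, just under the 1.5-fold line. Bax (chromosome 7, 45461697 to 45466898, minus strand), the effector that moves from the cytosol to mitochondria, had 332 and 844 reads, or 27.7 and 36.4 CPM. It was 1.31-fold higher (1.16 to 1.497), under 1.5-fold, and its log2 ratio went from 0.39 to 0.07 with the trend removed. Within each library Bak1 had 2.58 times the reads of Bax in WT and 3.35 times in KO, a ratio 1.30-fold higher in KO (1.11 to 1.51) that does not depend on how the libraries are scaled. Exons of Bak1 overlap those of Ggnbp1 on the opposite strand, and Ggnbp1 had 0 and 5 reads. Bax shares 12.2% of its exonic length with a same-strand gene model, Gm45808, a symbol absent from the deposited table.

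The BH3-only genes went in both directions, and Bcl2l11, the one with the most reads, was nearly equal in both libraries. Bcl2l11, which encodes Bim, the BH3-only protein best known for removing lymphocytes deprived of cytokine (chromosome 2, 128126038 to 128162547, plus strand), had 1296 reads in WT and 2565 in KO, or 108.2 and 110.7 CPM. Its ratio was 1.02 (0.957 to 1.09), and with total-count scaling its log2 ratio was -0.04. Bid, which links death receptors to mitochondria after cleavage by caspase-8 (chromosome 6, 120891930 to 120916853, minus strand), had 326 and 583 reads and a ratio of 0.925 (0.806 to 1.06). Bad, a BH3-only protein that growth factor kinases phosphorylate (chromosome 19, 6941861 to 6951899, plus strand), had 67 and 151 reads and a ratio of 1.17 (0.869 to 1.58). For Bcl2l11, Bid and Bad no difference was detectable at this depth. For Bad the interval was wide enough to include 1.5-fold, and its log2 ratio went from 0.22 to -0.06 with the GC and length trend removed. Of Bid's exonic length 17.7% overlaps Bcl2l13 on the opposite strand, and of Bad's 20.5% overlaps Gpr137. Reads there cannot be assigned with certainty unless counting used strand, a setting not given in the sources used here.

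Bbc3 and Pmaip1, textbook targets of p53 that encode Puma and Noxa, lay on opposite sides. Bbc3 (chromosome 7, 16308393 to 16318205, plus strand) had 81 reads in WT and 300 in KO, or 6.76 and 12.9 CPM. Its ratio of 1.92 (1.49 to 2.48) was the highest of the 10 genes and its log2 value of 0.93 lay at percentile 97.9 of expressed genes. Pmaip1 (chromosome 18, 66458533 to 66465565, plus strand) had 146 and 168 reads, or 12.2 and 7.25 CPM, 1.68-fold lower in KO (1.34 to 2.11; log2 -0.74, percentile 3.44). Puma binds all of the main pro-survival proteins, whereas Noxa is selective, with Mcl1 as a main partner. Bbc3 had 0.555 times the reads of Pmaip1 in WT and 1.79 times in KO, so the ratio between them differed 3.21-fold (2.28 to 4.55) between the libraries. With the GC and length trend removed this became 1.91-fold, with log2 ratios of 0.42 for Bbc3 and -0.51 for Pmaip1, both under 1.5-fold and still on opposite sides.

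**Figure D2:**
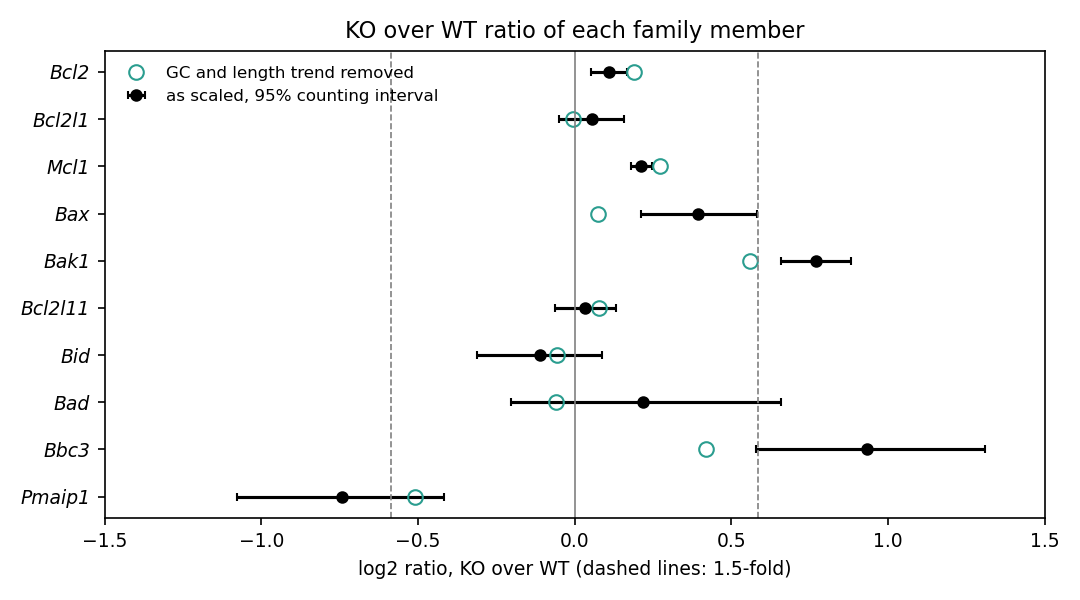
Log2 ratio of KO over WT for each family gene (black, with the exact 95% counting interval) and after removal of the GC and length trend (open green); dashed lines mark 1.5-fold. Bak1 and Bbc3 lie beyond the right line and Pmaip1 beyond the left one as scaled, and all 3 lie inside the lines with the trend removed.

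Some promoter windows are shown because they belong to the members that differed most upward and to Bcl2l11, which like Bbc3 is a textbook target of forkhead (Foxo) factors. They cover 250 bases before to 50 after a RefSeq transcript start (build GRCm38.p6, the sequence of mm10) and are written 5′ to 3′ on the gene's strand. Capitals mark the GC box GGGCGG and the forkhead core TGTTTAC on either strand, overlapping matches included.
Bbc3, first start, chr7:16309333-16309632 (plus strand): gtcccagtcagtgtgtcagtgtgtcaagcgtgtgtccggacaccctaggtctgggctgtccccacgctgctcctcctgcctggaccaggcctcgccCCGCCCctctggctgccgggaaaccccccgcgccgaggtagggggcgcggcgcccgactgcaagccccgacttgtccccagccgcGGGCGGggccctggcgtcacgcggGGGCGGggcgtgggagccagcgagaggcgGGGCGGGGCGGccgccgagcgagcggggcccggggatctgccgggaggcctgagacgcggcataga
Bbc3, second start, chr7:16310011-16310310 (plus strand): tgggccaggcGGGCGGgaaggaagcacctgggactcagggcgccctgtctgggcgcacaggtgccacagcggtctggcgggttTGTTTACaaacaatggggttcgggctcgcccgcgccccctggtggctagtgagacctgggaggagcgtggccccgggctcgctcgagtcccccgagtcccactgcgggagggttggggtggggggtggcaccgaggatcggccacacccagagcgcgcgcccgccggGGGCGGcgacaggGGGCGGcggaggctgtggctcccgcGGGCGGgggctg
Bcl2l11, first start, chr2:128125788-128126087 (plus strand): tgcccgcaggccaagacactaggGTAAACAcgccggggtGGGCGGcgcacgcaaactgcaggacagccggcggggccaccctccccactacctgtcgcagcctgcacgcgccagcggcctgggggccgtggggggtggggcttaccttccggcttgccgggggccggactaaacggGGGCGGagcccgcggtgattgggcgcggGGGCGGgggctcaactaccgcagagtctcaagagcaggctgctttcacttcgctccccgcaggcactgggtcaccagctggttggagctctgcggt
Bak1, chr17:27028578-27028877 (minus strand): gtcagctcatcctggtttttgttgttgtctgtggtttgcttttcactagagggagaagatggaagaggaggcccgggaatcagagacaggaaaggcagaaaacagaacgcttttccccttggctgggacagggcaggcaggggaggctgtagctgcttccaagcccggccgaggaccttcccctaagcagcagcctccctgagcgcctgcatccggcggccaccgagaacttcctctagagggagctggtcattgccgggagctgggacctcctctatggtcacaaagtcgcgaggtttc
The 2 Bbc3 windows shown hold 5 and 4 GC boxes, and the second holds 1 forkhead core. Another Bbc3 window, chr7:16310181-16310480, overlaps the second and is not shown; it holds 7 GC boxes, 1 E-box and no forkhead core. The Bcl2l11 window shown holds 3 GC boxes and 1 forkhead core, and the Bak1 window has neither motif. A further Bcl2l11 window, chr2:128127325-128127624, is not shown and holds 3 GC boxes and no forkhead core. Over all 32851 windows of the same length, 35.7% held a GC box and 3.65% a forkhead core. The p53 half-site (8.36% of all windows) and the E-box CACGTG (7.15%) had no match in the 4 windows shown. The Bax window held 1 p53 half-site and 2 E-boxes. Among all windows of family genes, only those of the second Bbc3 start and the first Bcl2l11 start held a forkhead core. Whether a motif bears on any ratio was not tested. A match is a description of letters and not a binding site. Windows were found for 9 of the 10 genes (15 windows in all), and none for Pmaip1.

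The ratio moved with base composition across the whole table, and among the family genes it also rose with GC content. What gave rise to this trend was not tested, and with 1 library per group its possible sources cannot be told apart. Over expressed genes, which are not independent replicates, the Spearman correlation of the log2 ratio with transcript GC content was 0.42. Cut into 10 bands of equal size by GC content, the genes had a median log2 ratio of -0.17 in the lowest band and 0.38 in the highest. Over the 10 family genes it was 0.81 (Pearson 0.86), a description of 10 genes from the same pair of libraries. Pmaip1 had the lowest GC content of the family (41.6%) and the lowest ratio, and Bbc3 the highest GC content (67.1%) and the highest ratio. Among the 699 expressed genes within 1 percentage point of Pmaip1 in GC content the median log2 ratio was -0.15 (interquartile range -0.30 to 0.01), and Pmaip1 at -0.74 lay below that range. Among the 914 such genes around Bak1 (57.3%) the median was 0.29 (0.06 to 0.50), and Bak1 at 0.77 lay above it. Bax (0.39) and Bad (0.22) lay inside the interquartile ranges of theirs, 0.15 to 0.57 and 0.12 to 0.55. Around Bbc3 there were 5 such genes (median 0.28), and 5 expressed genes had a higher GC content, so the trend value of 0.51 taken off Bbc3 rests on few genes. With the trend removed, 5.12% of 10859 genes with a GC value were at least 1.5-fold higher and 5.08% at least 1.5-fold lower, and 0 of the 10 family genes were past 1.5-fold in either direction. Among these genes Bak1, Bbc3 and Pmaip1 then lay at percentiles 94.2, 89.6 and 6.44.

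**Figure D3:**
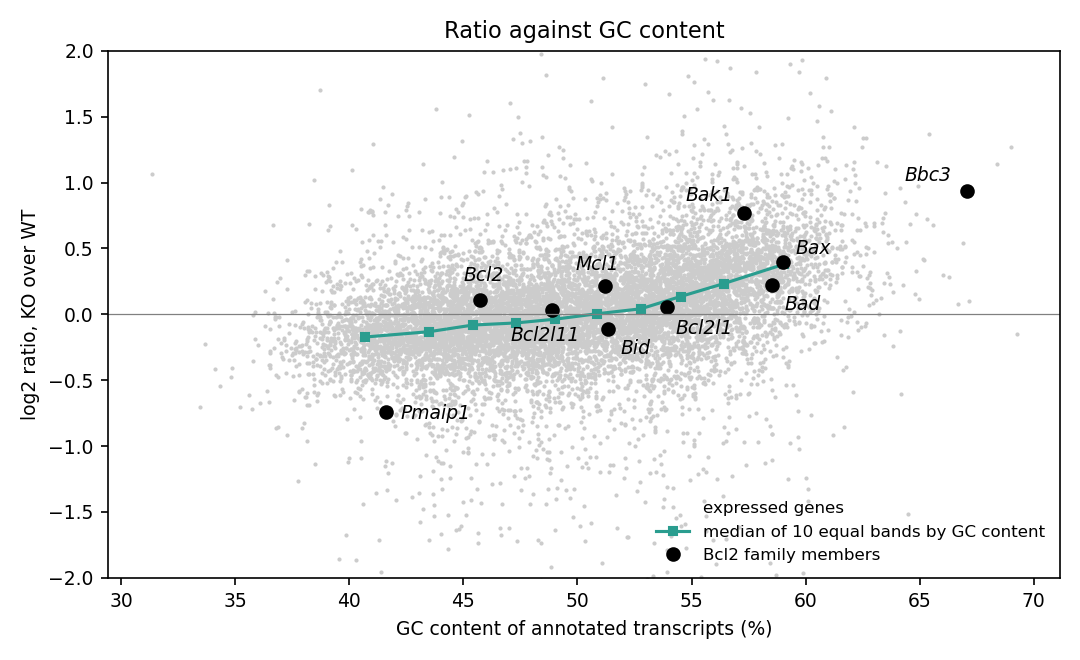
Log2 ratio of KO over WT against the GC content of annotated transcripts, for expressed genes (grey), the median of each of 10 equal bands of genes by GC content (green squares) and the 10 family genes (black); 52 genes lie outside the plotted range of -2 to 2. The green line climbs from -0.17 to 0.38, with Pmaip1 below its low-GC end, Bak1 above it, and Bax and Bad close to it.

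Balances between members, read within each library, shifted little at the core of the family. The ratio of Bcl2l11 to Bcl2 reads was 0.359 in WT and 0.341 in KO, a change of 0.949 (0.878 to 1.03) that could not be told from none. Against Mcl1, Bcl2l11 went from 0.125 to 0.110, or 0.884 (0.823 to 0.949), so that reads of Bcl2l11 were slightly fewer per read of Mcl1 in KO. Bcl2l1 to Bcl2, both pro-survival, stood at 0.319 and 0.307 (0.963, 0.887 to 1.04), a change that became 0.874 with the GC and length trend removed. Summed over roles, the 7 pro-apoptotic genes had 3105 and 7435 reads and the 3 pro-survival genes 15161 and 33129, a ratio that was 1.10-fold higher in KO (1.05 to 1.15). The effectors together were 1.60-fold higher (1.49 to 1.71), and the 5 BH3-only genes together were at 1.02 (0.962 to 1.07). These sums mostly follow 1 gene each. In WT and KO, Bak1 gave 857 of 1189 and 2824 of 3668 effector reads. Bcl2l11 gave 1296 of 1916 and 2565 of 3767 BH3-only reads. With the GC and length trend removed the summed pro-apoptotic to pro-survival ratio was 0.977, on the other side of 1, so the data do not fix its direction.

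**Figure D4:**
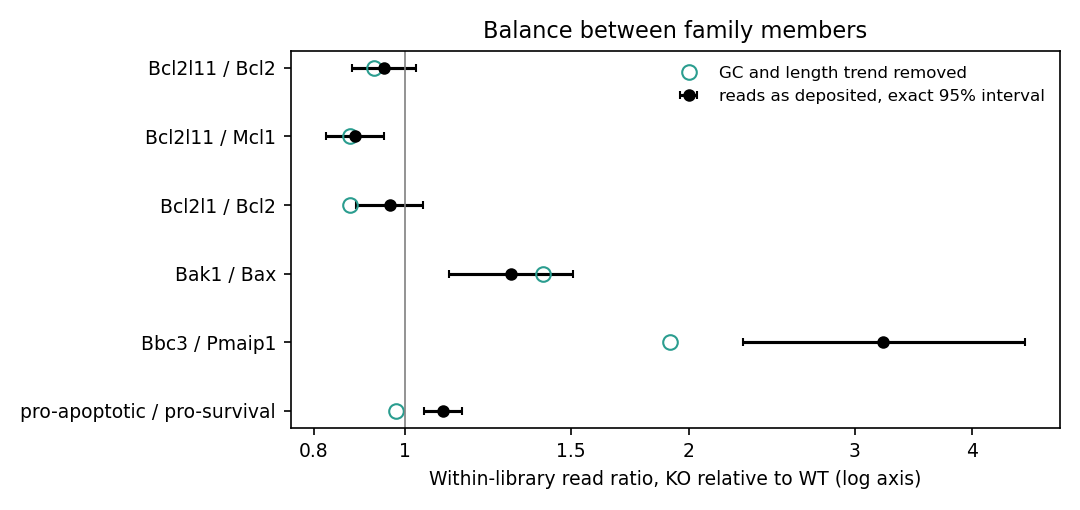
Change of the read ratio between pairs of family genes, KO relative to WT on a log axis, from reads as deposited (black, exact 95% interval for counting error) and with the GC and length trend removed (open green). The ratio of Bbc3 to Pmaip1 is the farthest from 1 under both (3.21 and 1.91), and the summed pro-apoptotic to pro-survival ratio changes side (1.10 and 0.977).

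Other genes of the family mostly lay within 1.5-fold or had few reads. Of 17 further family genes 10 were expressed, with a median log2 ratio of -0.09. At least 1.5-fold lower in KO were 3 of these 10, where 5.51% of all expressed genes were. None was at least 1.5-fold higher, where 7.43% of expressed genes were, and 7 lay between. The lower genes were the pro-survival A1 genes Bcl2a1b (221 and 225 reads, 1.90-fold, 1.57 to 2.30) and Bcl2a1d (44 and 53 reads, 1.61-fold, 1.05 to 2.44) and the BH3-only gene Bmf (87 and 103 reads, 1.63-fold, 1.21 to 2.19). All 3 remained at least 1.5-fold lower with the GC and length trend removed, at -0.95, -0.68 and -0.80 on the log2 scale. Over all genes with a GC value that share was then 5.08%. The A1 genes are near-identical copies, and reads that align to several places were not counted to genes, so their counts are uncertain. Bcl2a1b also shares 49.1% of its exonic length with a same-strand gene model, Gm29094. The effector-like gene Bok, the BH3-only gene Hrk and Bcl2l10 had 0 reads in both libraries, taken here as up to 3 reads per library for counting error only. The A1 copy Bcl2a1c was also listed at 0, which sets no limit because reads shared with its copies were not counted.

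Steps downstream of the mitochondrial pore included 17 genes, all expressed, of which 1 was at least 1.5-fold higher, 1 lower and 15 between (median -0.03). The shares over all expressed genes were 7.43% higher and 5.51% lower. With the GC and length trend removed none of the 17 was past 1.5-fold. The mitochondrial nuclease gene Endog rested on 12 and 43 reads (1.85-fold higher, 0.960 to 3.86), had a GC content of 64.3%, and went to 0.25 with the trend removed. Apaf1, which assembles the apoptosome, and Cycs, which encodes the cytochrome c that triggers it, had log2 ratios of 0.11 and -0.03. The initiator caspase gene Casp9 was at -0.23, and the caspase inhibitor genes Xiap and Birc3 were at -0.24 and 0.31.

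Genes that control transcription or turnover of family members stayed within 1.5-fold. Of 21 listed genes 20 were expressed and all 20 lay between (median 0.09). The largest log2 ratios were those of the IL-2 receptor gene Il2ra (0.45), Trp53, which encodes p53 (0.39), Stat5a, which carries the IL-2 signal to the nucleus (0.35), and Casp8, whose product cleaves Bid (0.35). Trp53 had 2912 and 7370 reads (1.31-fold). The forkhead genes Foxo1 and Foxo3 were at 0.31 and 0.07, and Huwe1, whose product marks Mcl1 for degradation, at 0.29. With the GC and length trend removed Il2ra passed 1.5-fold, at 0.59. Foxo1 was then at 0.35 and Foxo3 at -0.24, a change of side for Foxo3.

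The sorted cells carried Treg markers in both libraries: all 7 listed genes had reads, with a summed level of 5268 CPM in WT and 6370 in KO, and they did not go one way. Foxp3 itself was 1.85-fold higher in KO (8540 and 30579 reads), while the inhibitory receptor gene Ctla4 (1712 and 2056 reads) and the transcription factor gene Ikzf2 (3859 and 4706 reads) were 1.61-fold and 1.59-fold lower; the other 4 lay between. With the GC and length trend removed Ctla4 and Ikzf2 were at -0.48 and -0.57 on the log2 scale, under 1.5-fold. All 12 markers of effector Treg cells were at least 1.5-fold lower in KO (summed level 480 and 112 CPM; 11 with the GC and length trend removed), while of 9 resting T cell markers 3 were higher and 6 between (6023 and 7620). Markers of other cells were present in both libraries. The 5 B cell markers summed to 112.9 and 91.2 CPM, the 6 myeloid markers in the table to 400.0 and 373.8, and the 2 CD8 markers to 33.6 and 41.5. In WT and KO the myeloid sum was mostly Csf1r (266.5 and 234.9) and Lyz2 (123.1 and 126.2). The CD8 sum was mostly Cd8b1 (27.4 and 35.3). The part of effector Treg cells or of other cells in the ratios of the Bcl2 family genes was not tested.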

How the data were processed

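The authors deposited unnormalized whole-number read counts for each gene and library. HTSeq, TopHat2 2.0.3 and the build mm10 are named in the submitters' processing notes; annotation and strand setting: not given in the sources used here. Categories that are the counter's own, 23.4% of entries in each library, were left out of library sizes. Samples were grouped by title. Counts were scaled with edgeR 4.0.16 (TMM factors, R 4.3.3); edgeR and DESeq2 1.42.0 supplied scaling factors only. Intervals are exact binomial, Poisson or, for read ratios between genes, conditional odds ratio intervals (scipy 1.17.1). GC content and exon length came from GENCODE M21 (GRCm38, the sequence of mm10) for 10859 of 10899 expressed genes, and a smooth additive trend on both was fitted with mgcv 1.9.3 and subtracted. The ratio and interval code was tested on simulated Poisson counts with known fold changes and no spread between mice. No GC or length trend was planted in them, so the removal of a real trend was not tested. Alternatives were other scalings, pseudocounts, filters, folds, and the trend removal.

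The members, lists and settings were chosen with earlier results of these data known. All 10 members are named. From each further pathway list every expressed gene past 1.5-fold is named, or else up to 4 with the largest ratios; Apaf1, Cycs, Casp9, Xiap, Birc3, Foxo1, Foxo3, Huwe1 and the genes at 0 were added for their roles after their values were seen. The lists were further Bcl2 family genes, steps after mitochondrial permeabilisation, and transcription and turnover of members. Markers of Treg, effector Treg, resting T, B, CD8 T, NK, myeloid, dendritic, erythroid and stromal cells were summed. NK, dendritic, erythroid and stromal markers had summed levels of 6.93 and 7.86, 12.2 and 13.8, 13.8 and 5.31, and 296.6 and 325.1 CPM in WT and KO, the last almost all Pecam1; Hba-a1, Hbb-bs and Pdpn were at 0 in both. The targeted gene, and some genes that the naming rule takes, are not reported here.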

Additional observations from a re-analysis of the deposited data

How the results depend on the processing

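No paired analysis was possible because each group holds 1 library, and for the same reason no replicate could be left out. The counts of 2 family genes higher and 1 lower at 1.5-fold were the same with DESeq2, upper-quartile and total-count scaling, pseudocounts of 0.5 and 5, no filter, and a filter at a mean of 100 reads; at the lower of the planned fold thresholds they were 3 and 1. At 2-fold, and with the GC and length trend removed, both were 0. The median log2 ratio of the family lay between 0.08 and 0.16 under every alternative. Trend removal took Bcl2 to 0.19, Mcl1 to 0.27, Bax to 0.073, Bak1 to 0.56 and Bbc3 to 0.42, outside their counting intervals, and total-count scaling took Bcl2 to 0.032 and Mcl1 to 0.13. The read ratio of Bcl2l1 to Bcl2 became 0.874 with the trend removed, that of Bbc3 to Pmaip1 1.91, and that of all pro-apoptotic to all pro-survival genes 0.977, a change of side. Over all genes, the counts past 1.5-fold were 810 higher and 600 lower. Under alternatives applied to these counts after seeing the data they became 2617 and 1867 with no filter, 509 and 309 with a mean of at least 100 reads, 2155 and 1644 at that lower fold, and 173 and 227 at 2-fold. The share of higher genes among those past 1.5-fold was 57.45% as scaled and 45.1% with total-count scaling. The length used for levels per kilobase was varied after seeing the data. Genes with few reads, such as Bad, Bbc3 and Pmaip1, have the widest counting intervals of the family.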
